A study of Mus musculus with 6 samples.

Results

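The 8 genes described here are the keratins Krt7, Krt8, Krt18, Krt19, Krt20 and Krt23, the cadherin Cdh1 (E-cadherin) and Epcam, a cell adhesion molecule that is neither a keratin nor a cadherin. They were chosen by gene name, with earlier results of these data known. All 8 were found among the 18708 rows of the deposited expression table. RNA was measured in stomach corpus, the acid-secreting part of the stomach, of C57BL/6 mice aged 6 months. The R122C group held 3 mice whose transcription factor RUNX3 carries the substitution R122C, and the wild type (WT) group held 3 mice. Each library came from 1 mouse, and the labels give neither zygosity nor sex. Values per mouse are given in the order of the replicate numbers 1, 2 and 3.

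Keratins are intermediate filament proteins that assemble only as pairs of a type II and a type I chain. Krt7 and Krt8 are type II chains, and Krt18, Krt19, Krt20 and Krt23 are type I chains. Single-layered epithelia such as that of the stomach are built mainly on Krt8 with Krt18 or Krt19, whereas Krt7 is known from duct-like epithelia and Krt20 from the surface epithelium of stomach and gut. Cdh1 joins epithelial cells at adherens junctions through its catenin partners. Epcam marks most simple epithelia and is known to bind the claudin Cldn7.

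In R122C corpus, Epcam, Krt7 and Krt18 rose, and no gene of the 8 fell past the test. By the ratio of means, Krt7 was 10.6 times, Epcam 3.95 times and Krt18 2.02 times its WT level. Without R122C 3, where Krt7 was highest, these ratios were 5.05, 3.93 and 1.82. Under 18 alternative settings of the test, Epcam passed in 18, Krt7 in 14 and Krt18 in 8. Krt18 passed in none of the 6 that left out 1 library. The most abundant keratins, Krt8 and Krt19, and Cdh1 did not pass. Of the 8 genes, 3 were called higher and 0 lower, beside 5.27% of all 11422 tested genes called higher, 0.832% called lower and 6.1% called in either direction. An unadjusted p under 0.05 was reached by the same 3 of 8 and by 20.1% of all tested genes. The test was limma on log2(FPKM + 1), with a Benjamini-Hochberg adjusted p threshold of 0.05 over all tested genes, and all 8 genes passed the filter of a mean of at least 1 FPKM (fragments scaled by gene length and library total). The tissue holds several cell types, so more cells of a type and more RNA per cell cannot be told apart.

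The promoters of the 3 genes called higher are shown because RUNX3 is a DNA-binding factor. Whether it acts on any of them was not tested. Each is the stretch of up to 250 bases before the RefSeq start on GRCm38.p6 (the mm10 assembly), ending before any untranslated region that GENCODE M21 gives the gene, read 5′ to 3′ on the plus strand, which is the strand of all 3 genes. The Krt7 stretch lies inside the annotated gene, since another annotated transcript starts upstream, and overlaps the antisense gene Gm671. Capitals mark matches on either strand to CACCTG (the E-box read by repressors of Cdh1) and GGGCGG (an SP and KLF motif).
Krt7, chr15:101412153-101412401: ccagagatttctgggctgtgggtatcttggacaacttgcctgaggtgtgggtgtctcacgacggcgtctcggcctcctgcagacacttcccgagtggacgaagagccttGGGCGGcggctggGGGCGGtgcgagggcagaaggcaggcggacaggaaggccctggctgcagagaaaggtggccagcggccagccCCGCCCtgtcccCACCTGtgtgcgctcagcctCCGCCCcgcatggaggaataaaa
Krt18, chr15:102027966-102028179: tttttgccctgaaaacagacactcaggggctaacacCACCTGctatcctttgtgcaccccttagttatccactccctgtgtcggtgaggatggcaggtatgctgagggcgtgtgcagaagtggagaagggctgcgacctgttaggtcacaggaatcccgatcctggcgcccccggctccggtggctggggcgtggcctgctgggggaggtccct
Epcam, chr17:87635729-87635978: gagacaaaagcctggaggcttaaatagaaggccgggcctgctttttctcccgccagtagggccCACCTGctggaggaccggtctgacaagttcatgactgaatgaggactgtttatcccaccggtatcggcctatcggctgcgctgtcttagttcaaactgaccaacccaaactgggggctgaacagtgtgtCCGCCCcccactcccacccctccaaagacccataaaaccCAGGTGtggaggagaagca
The search covered 250 bases before and 50 after the RefSeq start in the 6 members found in the promoter table used here (Krt7, Krt8, Krt18, Krt20, Krt23 and Epcam). CACCTG or its reverse CAGGTG lay in 5 of the 6, all but Krt20, and in 20.2% of 32851 mouse promoters. GGGCGG lay in Krt7, at 4 places, and once in Epcam, and in 35.7% of promoters. TGTGGT, read by RUNX factors, was in none of the 6 windows and in 16.8% of promoters, and TGACTCA (AP-1) was in none and in 5.2%. The TATA box letters TATAAA lay in Krt8 and Krt20 and in 13.6% of promoters. The GATA motif AGATAA lay in the same pair of genes and in 11.2% of promoters. In Krt8 the 2 strand matches to TATAAA overlap each other and the RefSeq start. That start and the CACCTG match of Krt8 lie inside the gene as GENCODE M21 gives it. A match describes these letters only.

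Krt8 and Krt19 were among the most abundant transcripts of the tissue in both groups. By group mean Krt19 ranked 21 in R122C and 21 in WT among all rows, and Krt8 ranked 23 in R122C and 22 in WT. Krt18 ranked 47 in R122C and 97 in WT, and Krt7 ranked 607 in R122C and 4649 in WT. In R122C the order of mean FPKM was Krt19, Krt8, Krt18, Epcam, Cdh1, Krt20, Krt7 and Krt23, and in WT it was Krt19, Krt8, Krt18, Cdh1, Krt23, Krt20, Epcam and Krt7. Several neighbours in these orders changed places between libraries of a group. Krt8 lay above Krt19 in 2 of 3 R122C and in 2 of 3 WT libraries, and Cdh1 lay above Epcam in 2 of 3 R122C libraries. Krt7 lay above Krt23 in 1 of 3 R122C libraries, and Krt20 above Krt23 and above Epcam in 2 of 3 WT libraries each. Krt20 lay above both Krt7 and Krt23 in all 3 R122C libraries. FPKM is a level per length, but the length the authors used is not given here. It matters most for Krt7, whose 5 annotated transcripts cover 7049 exonic bases, against 1958 for Krt8.

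**Figure D1:**
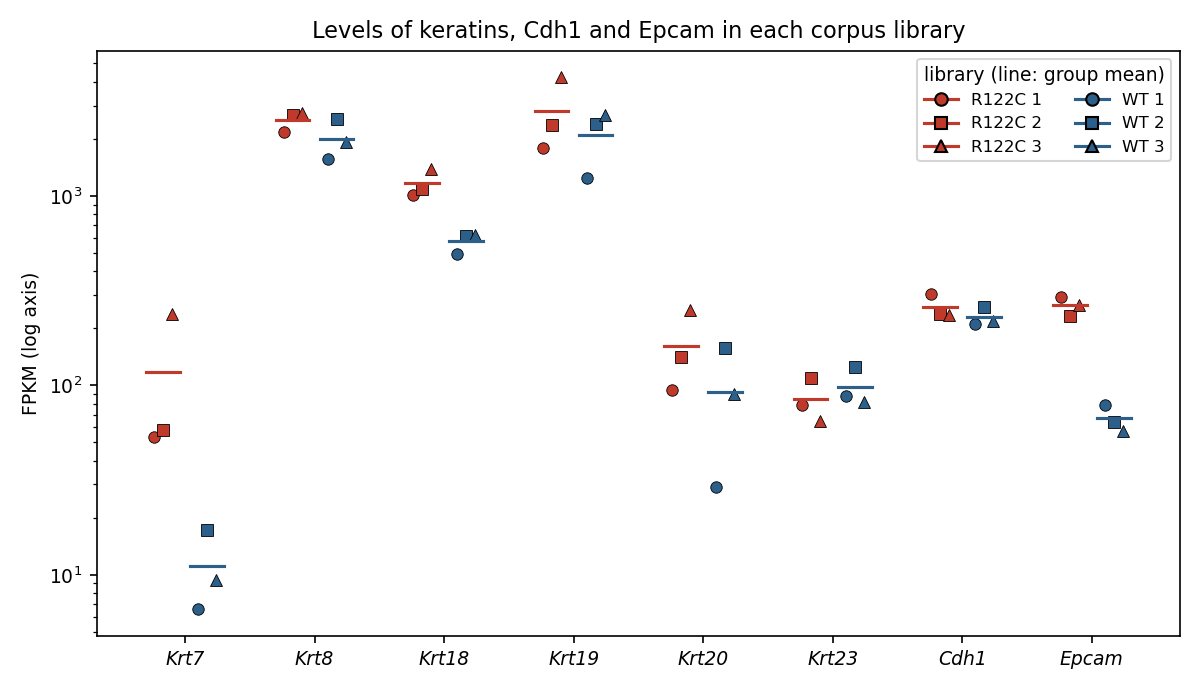
FPKM on a log axis of each gene in every library, with R122C in red on the left and WT in blue on the right of each pair and a line at each group mean. The R122C libraries lie above all WT libraries for Krt7, Krt18 and Epcam, and the groups overlap for the other 5 genes.

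Among the type II chains, Krt7 rose and Krt8 did not pass. Krt7 (chromosome 15, 101411043 to 101430313, plus strand, at most 9 exons) was at 53.44, 58.37 and 238.92 FPKM in the R122C mice, against 6.59, 17.23 and 9.38 FPKM in the WT mice. All R122C libraries lay above all WT libraries, with R122C 3 far above the other two. The means were 117 ± 106 FPKM in R122C and 11.1 ± 5.52 FPKM in WT (SD, n = 3 each), and the log2 fold change was 3.03 ± 0.56 (SE), which passed (limma adjusted p = 0.0173). Without R122C 3 the log2 fold change was 2.33 and passed (limma adjusted p = 0.00276). With array weights it was 1.99 (limma adjusted p = 0.000326), a setting that called 3812 genes higher and 1697 lower over the whole table. Krt7 missed the threshold without WT 1 (adjusted p = 0.0513) or WT 3 (0.0547), with median-of-ratios scaling (0.0564) and with no filter on low values (0.0658). The annotated antisense gene Gm671 overlaps Krt7 on the opposite strand, and strandedness is not given, so reads of the 2 cannot be told apart.

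Krt8 (chromosome 15, 101996698 to 102004482, minus strand, 9 exons) was at 2178, 2669 and 2728 FPKM in the R122C mice, against 1559, 2550 and 1914 FPKM in the WT mice. The groups overlapped through WT 2, which lay above R122C 1. The log2 fold change was 0.35 ± 0.27 (SE) with a 95% interval from -0.27 to 0.98 (limma adjusted p = 0.537). The lincRNA Gm36026 overlaps it on the opposite strand, and the annotation holds 1 pseudogene named after Krt8, so its reads could be shared.

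Among the type I chains, Krt18 rose and the other 3 did not pass. Krt18, the classical partner of Krt8 and its next coding gene at 23697 bases (chromosome 15, 102028180 to 102032027, plus strand, 7 exons), was at 1010, 1092 and 1395 FPKM in the R122C mice. The WT mice had 495, 616 and 624 FPKM. The groups were clear of each other, with every R122C library above 1000 FPKM. The means were 1166 ± 203 FPKM in R122C and 578 ± 72.0 FPKM in WT (SD, n = 3 each), and the log2 fold change was 1.00 ± 0.23 (SE), which passed (limma adjusted p = 0.0381). Krt18 missed the threshold with median-of-ratios scaling (0.156), quantile normalization (0.101), no filter (0.0946) or a covariate for Y-linked transcripts (0.0805). The call did not hold without any 1 of the 6 libraries (adjusted p from 0.0577 without R122C 1 to 0.138 without R122C 2), while the log2 fold change stayed between 0.87 and 1.10.

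Krt19, which lacks most of the tail domain of other keratins, was at 1782, 2379 and 4225 FPKM in the R122C mice, against 1242, 2402 and 2664 FPKM in the WT mice. It lies on chromosome 11 (100140810 to 100148665, minus strand, up to 6 exons). R122C 3 was the highest library, and the other two lay within the WT range. The log2 fold change was 0.39 ± 0.41 (SE) with a 95% interval from -0.55 to 1.33 (limma adjusted p = 0.67), and leaving out 1 library moved it between 0.045 and 0.67.

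Krt20 (chromosome 11, 99428403 to 99438150, minus strand, 8 exons) varied most among WT mice. It was at 94.1, 141 and 250.5 FPKM in the R122C mice, against 29.2, 157 and 90.4 FPKM in the WT mice. The coefficient of variation was 49.5% in R122C and 69.2% in WT. Its log2 fold change of 0.99 ± 0.58 (SE) was about as large as that of Krt18 but did not pass (limma adjusted p = 0.397), and its 95% interval ran from -0.33 to 2.31. Array weights gave 0.25. Leaving out R122C 3 gave 0.62, and leaving out a WT mouse gave 0.32 (WT 1) to 1.52 (WT 2).

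Krt23 (chromosome 11, 99477974 to 99493137, minus strand, 8 exons), the next coding gene to Krt20 at 39823 bases, was the only one of the 8 with a log2 fold change below 0, and with rescaling to a common total that value was 0.0003. It was at 78.6, 110 and 64.9 FPKM in the R122C mice, against 88.2, 125 and 82.1 FPKM in the WT mice. The groups overlapped, and the log2 fold change was -0.23 ± 0.25 (SE) with a 95% interval from -0.80 to 0.35 (limma adjusted p = 0.69).

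The adhesion genes parted. Epcam (chromosome 17, 87635979 to 87651129, plus strand, up to 10 exons) was at 293, 233 and 267 FPKM in the R122C mice, against 78.9, 64.2 and 57.5 FPKM in the WT mice. The lowest R122C library was far above the highest WT library, and the spread within each group was small. The means were 264 ± 30.0 FPKM in R122C and 66.9 ± 11.0 FPKM in WT (SD, n = 3 each), and the log2 fold change was 1.97 ± 0.20 (SE), which passed (limma adjusted p = 0.00138). It passed under all 18 alternatives tried, with log2 fold changes between 1.78 and 2.20.

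Cdh1 (chromosome 8, 106603351 to 106670246, plus strand, up to 17 exons) was at 304, 238 and 235 FPKM in the R122C mice, against 210.5, 258 and 218 FPKM in the WT mice. R122C 1 was highest, and WT 2 lay above the other two R122C libraries. The means were 259 ± 38.8 FPKM in R122C and 229 ± 25.6 FPKM in WT (SD, n = 3 each). The log2 fold change was 0.17 ± 0.20 (SE) with a 95% interval from -0.28 to 0.62 (limma adjusted p = 0.7), and it was -0.013 with quantile normalization and -0.041 with array weights. For 3 of the 8 genes all R122C libraries lay above all WT libraries, beside 20.3% of all tested genes, and for 0 of 8 below, beside 5.19% (25.5% in either direction).

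**Figure D2:**
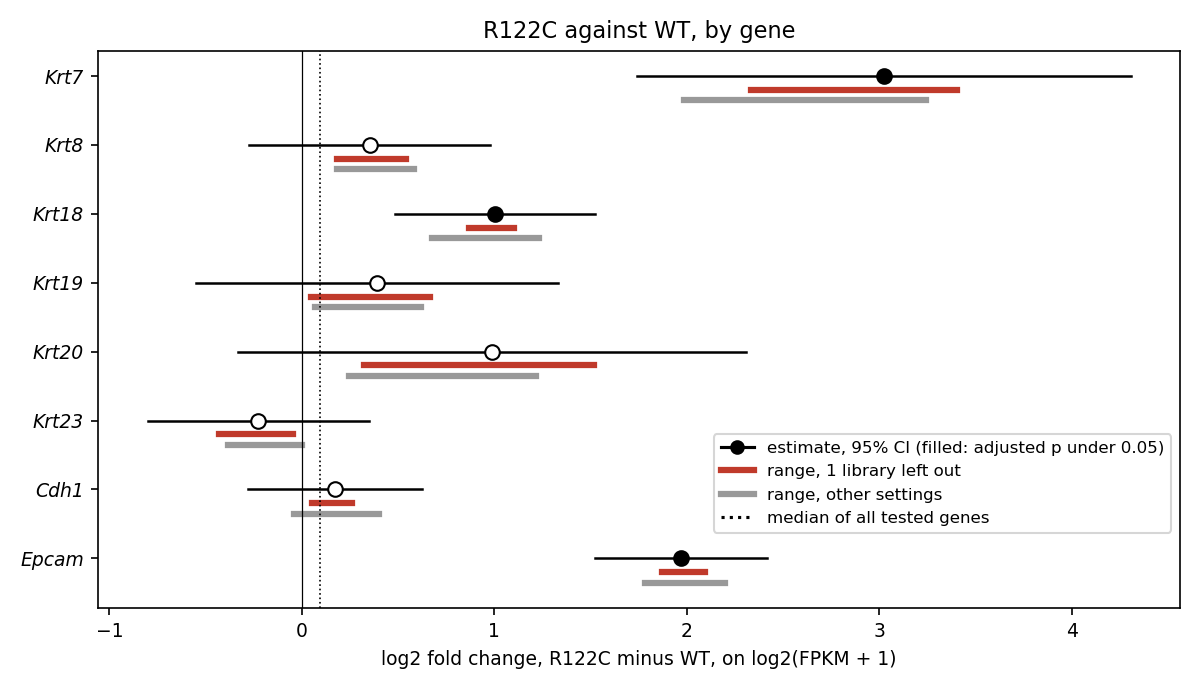
Log2 fold change of R122C minus WT on log2(FPKM + 1) with its 95% interval for each gene, filled where the adjusted p was under 0.05, with the range over fits that left out 1 library in red and over the other settings in grey. Epcam, Krt7 and Krt18 lie right of the median of all tested genes (0.10, dotted) with their whole intervals.

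Ratios taken within a library do not depend on how libraries are scaled, and they were described without a test. Krt8 over Krt18, the FPKM ratio of the classical pair, was 2.16, 2.45 and 1.96 in the R122C mice, against 3.15, 4.14 and 3.07 in the WT mice. Every R122C library had less Krt8 per Krt18 than every WT library. The means were 2.19 ± 0.246 in R122C and 3.45 ± 0.597 in WT (SD, n = 3 each).

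Epcam over Cdh1 was 0.965, 0.979 and 1.14 in the R122C mice, against 0.375, 0.249 and 0.264 in the WT mice. The 2 adhesion genes were thus at about equal FPKM in R122C and unequal in WT. Relative to Cdh1, taken as a measure of epithelial RNA, Krt18 averaged 4.62 ± 1.31 in R122C and 2.53 ± 0.285 in WT, and the groups did not overlap. Krt7 over Cdh1 was 0.176, 0.245 and 1.02 in the R122C mice, against 0.0313, 0.0668 and 0.0431 in the WT mice. The ratios of Krt8, Krt19, Krt20 and Krt23 to Cdh1 overlapped between the groups.

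**Figure D3:**
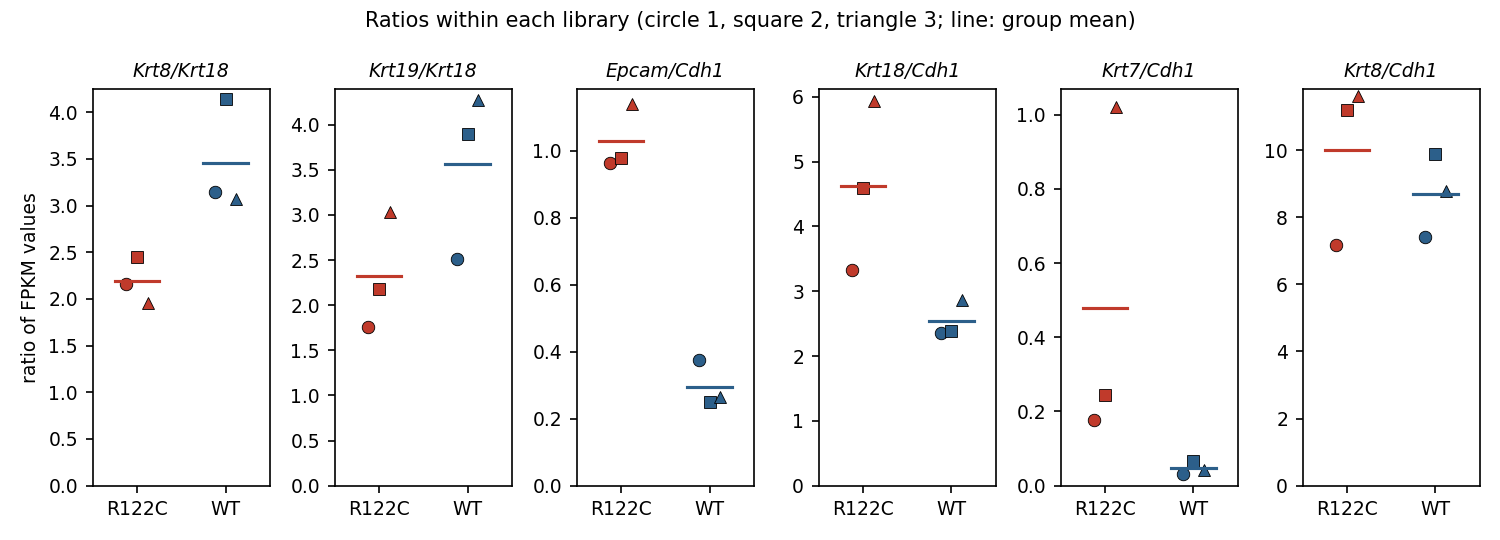
FPKM ratios within each library, with R122C in red on the left and WT in blue on the right of each panel and a line at the group mean. Krt8 over Krt18 is lower in all R122C libraries, and Epcam, Krt18 and Krt7 over Cdh1 are higher, while Krt19 over Krt18 and Krt8 over Cdh1 overlap.

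The summed FPKM of the 6 keratins made up 0.876%, 1.02% and 1.53% of all FPKM in the R122C mice, against 0.499%, 0.822% and 0.751% in the WT mice. These shares also depend on the FPKM total, which was larger in WT. The undivided sums overlapped between the groups. Type II chains summed to 2231 to 2967 FPKM in R122C and 1566 to 2567 FPKM in WT, and type I chains to 2965 to 5936 and 1854 to 3460 FPKM. Within that sum, Krt18 held 19.4%, 16.9% and 15.7% in the R122C mice and 14.5%, 10.5% and 11.6% in the WT mice, and its groups did not overlap. Krt7 held between 0.905% and 2.68% in R122C and between 0.174% and 0.294% in WT. The shares of Krt8 (30.6% to 41.9% in R122C and 35.6% to 45.6% in WT) and of Krt19 (34.3% to 47.5% in R122C and 36.3% to 49.5% in WT) overlapped. The sum of type II over the sum of type I chains was 0.662 ± 0.140 in R122C and 0.726 ± 0.151 in WT (SD, n = 3 each).

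**Figure D4:**
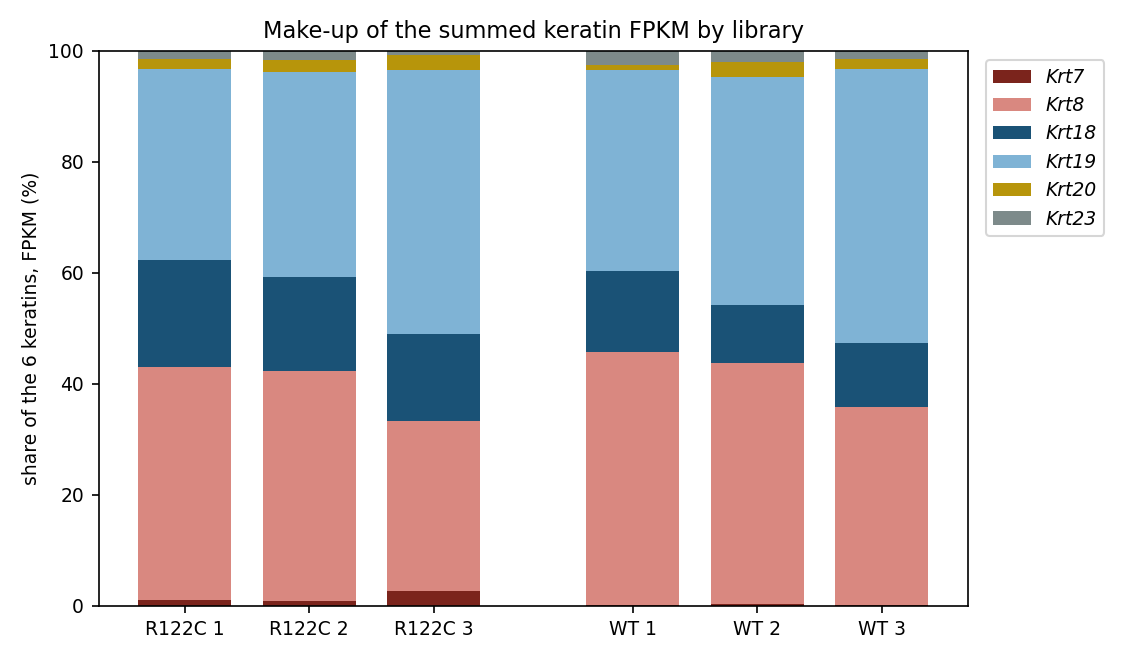
Share of each keratin in the summed FPKM of the 6 keratins, one bar for each library, R122C on the left and WT on the right. Krt8 and Krt19 fill most of every bar, and Krt18 takes 15.7% to 19.4% in R122C and 10.5% to 14.5% in WT.

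Other keratins were most abundant in R122C 3, summing to 47.9, 80.3 and 873 FPKM in the R122C mice, against 10.1, 35.5 and 14.5 FPKM in the WT mice. Of 21 further keratins listed, 14 were tested, and 1 rose and 0 fell, with a median log2 fold change of 1.88 beside 0.10 for all tested genes. Without R122C 3 the median of the same 14 genes was 0.39. Several of the 14, such as Krt5 with a WT mean of 0.61 FPKM, passed the filter of 1 FPKM only through R122C. The filter thus favoured higher R122C values in both medians, which are description only. Krt13, a keratin of stratified epithelia, was at 9.17, 49.64 and 300.87 FPKM in the R122C mice, against 0.32, 3.77 and 1.21 FPKM in the WT mice (limma adjusted p = 0.043). Its call was lost without WT 1, WT 2, WT 3 or R122C 2 (0.0915 to 0.122), and with no filter, median-of-ratios or quantile scaling, robust eBayes or the Y-linked covariate (0.0512 to 0.158). Without R122C 3 it held (0.0187). Krt5, the basal type II chain of stratified epithelia, was at 42.9 FPKM in R122C 3 and at most 1.70 FPKM in R122C 1, R122C 2 and WT. Krt79 was at 11.39 to 12.35 FPKM in R122C and 2.80 to 8.02 FPKM in WT, and Krt78 at 4.42 to 11.3 FPKM in R122C and 1.09 to 3.11 FPKM in WT, and neither passed (limma adjusted p = 0.0636 and 0.0654). Krt80, the nearest coding gene before Krt7, was at 7.01 to 7.60 FPKM in R122C and 4.29 to 6.65 FPKM in WT (limma adjusted p = 0.272).

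R122C 3 stood apart by markers of the squamous forestomach, the neighbouring region lined by stratified epithelium. The 12 listed squamous markers summed to 26.7 FPKM in R122C 1, 54.5 in R122C 2 and 1231 in R122C 3, against 0.75 to 16.9 FPKM in WT. Krt13 alone gave 9.17 FPKM of this sum in R122C 1 and 49.64 FPKM in R122C 2. The median log2 fold change of the 9 tested was 2.13, against 0.42 for the same 9 without R122C 3. Several of the 9, Krt5 among them, had a WT mean under 1 FPKM and passed the filter only through R122C, which favours medians above 0. Trp63, the regulator of stratified epithelium, was also highest in R122C 3, at 0.01, 0.06 and 0.88 FPKM in the R122C mice and at most 0.07 FPKM in WT. The same library had the lowest sums of chief and parietal cell markers. Chief cell genes summed to 14345, 26636 and 1761 FPKM in the R122C mice, against 112497, 35273 and 58803 FPKM in the WT mice. Most of each sum was Pgc, and 2 of the 6 chief genes, Pga5 and Cym, had log2 fold changes above 0 (0.81 and 0.11). Parietal cell genes summed to 6837, 6113 and 2620 FPKM in the R122C mice, against 9209, 5367 and 7898 FPKM in the WT mice. The parietal sums include Car2, which was higher in every R122C library than in WT. It was at 1819, 2120 and 1719 FPKM in the R122C mice, against 1066, 1114 and 1345 FPKM in the WT mice. Krt7, Krt8, Krt18, Krt19 and Krt20 were also highest in R122C 3, and the part of squamous tissue and of the lower corpus markers in their levels was not tested. Without R122C 3, Krt7 passed, as given above, and Krt18 stood at 0.87 on the log2 scale without passing (limma adjusted p = 0.075). Mesothelial cells also carry simple keratins, and the sum of 7 of their markers was 1.40 to 3.08 FPKM in R122C and 3.12 to 13.2 FPKM in WT, with Wt1 at most 0.26 FPKM.

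The partners of Epcam rose in part. Of 8 listed genes of its membrane complex and of the surface protease system, 2 rose and 0 fell, with a median log2 fold change of 0.49. Cldn7, the claudin that binds Epcam, was at 2.23, 4.84 and 9.69 FPKM in the R122C mice, against 0.53, 0.42 and 0.60 FPKM in the WT mice. The groups did not overlap, and the log2 fold change was 1.95 ± 0.39 (SE), which passed (limma adjusted p = 0.0242). With a WT mean of 0.52 FPKM, Cldn7 entered the test only through its R122C values. Cldn7 did not pass without WT 1, WT 2, WT 3 or R122C 2 (0.0594 to 0.102), with median-of-ratios (0.0618) or quantile scaling (0.0846), or with no filter (0.0747). Cd9, a tetraspanin, was at 172, 158 and 217 FPKM in the R122C mice, against 57.5, 61.8 and 55.8 FPKM in the WT mice, a difference of 1.61 ± 0.19 on the log2 scale (SE) that passed (limma adjusted p = 0.00236). Spint2, an inhibitor of surface proteases, was at 827 to 885 FPKM in R122C and 499 to 644 FPKM in WT, without passing (limma adjusted p = 0.165).

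The junction and linker genes that work with Cdh1 and with keratins had no calls in the limma fit. Of 11 tested catenins and adherens junction partners 0 passed limma (median log2 fold change -0.17), with 3 at an unadjusted p under 0.05. Over the 18 alternatives between 0 and 4 were called higher, above 0 under 3 of them, and between 0 and 4 lower, above 0 under 1. The listed gene of smallest p was the nectin Pvrl1, at 0.95 ± 0.26 on the log2 scale (SE, limma adjusted p = 0.0703). The catenins Ctnna1 and Ctnnb1, which tie Cdh1 to actin, had log2 fold changes of -0.17 and 0.09. Of 14 tested desmosome and keratin linker genes 0 passed limma (median 0.03, and -0.11 for the same genes without R122C 3), with 5 at an unadjusted p under 0.05. Of these 5, Eppk1 had a log2 fold change above 0, and Dsp, Dsc2, Dsg2 and Dst had values of -0.75, -0.60, -0.51 and -0.87. Over the 18 alternatives between 0 and 1 genes of the list were called higher and between 0 and 5 lower, each above 0 under 3. Eppk1, a plakin that binds keratins, came nearest (log2 fold change 0.69 ± 0.21, limma adjusted p = 0.0971). Dsp, which anchors keratins at desmosomes, was at 53.0, 29.4 and 32.7 FPKM in the R122C mice, against 59.2, 67.3 and 63.8 FPKM in the WT mice, all lower in R122C but without passing (limma adjusted p = 0.111). Dsp, Dsc2, Dsg2, Dst, Ctnna1, Ctnnb1, Krt5, Krt78, Krt79, Krt80, Trp63, Wt1, Spint2, Cdh5, Atp4a, Car2 and Gcnt1 were named after their values were seen. The same holds for Pgc, Pga5 and Cym.

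No other cadherin was abundant. Of 11 listed, 3 were tested and 0 passed limma, also 0 at an unadjusted p under 0.05, and 1 was called lower with no filter. Cdh13 came nearest at 0.21 on the log2 scale (limma adjusted p = 0.678), and the highest value of any of them was 3.61 FPKM for Cdh5, the endothelial cadherin, in WT 1. The 6 listed repressors of Cdh1 (Snai1, Snai2, Zeb1, Zeb2, Twist1 and Twist2) all lay under the filter, and none exceeded 1.40 FPKM in any library. Among 10 tested epithelial regulators 1 rose and 0 fell (median 0.13). It was Ehf, an epithelial ETS factor, at 24.8, 16.2 and 21.8 FPKM in the R122C mice, against 10.2, 6.81 and 5.81 FPKM in the WT mice (limma adjusted p = 0.0159, and 0.0824 without WT 2 and 0.0585 without WT 3). Of 7 tested other intermediate filament genes 0 rose and 1 fell, the neuronal Prph at -1.27 ± 0.27 on the log2 scale (SE, limma adjusted p = 0.0312), a call lost without WT 1, WT 2, WT 3 or R122C 2 (0.076 to 0.111), with no filter (0.0781) and with the Y-linked covariate (0.05). These lists were described by counts and medians, with no test of a list.

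**Figure D5:**
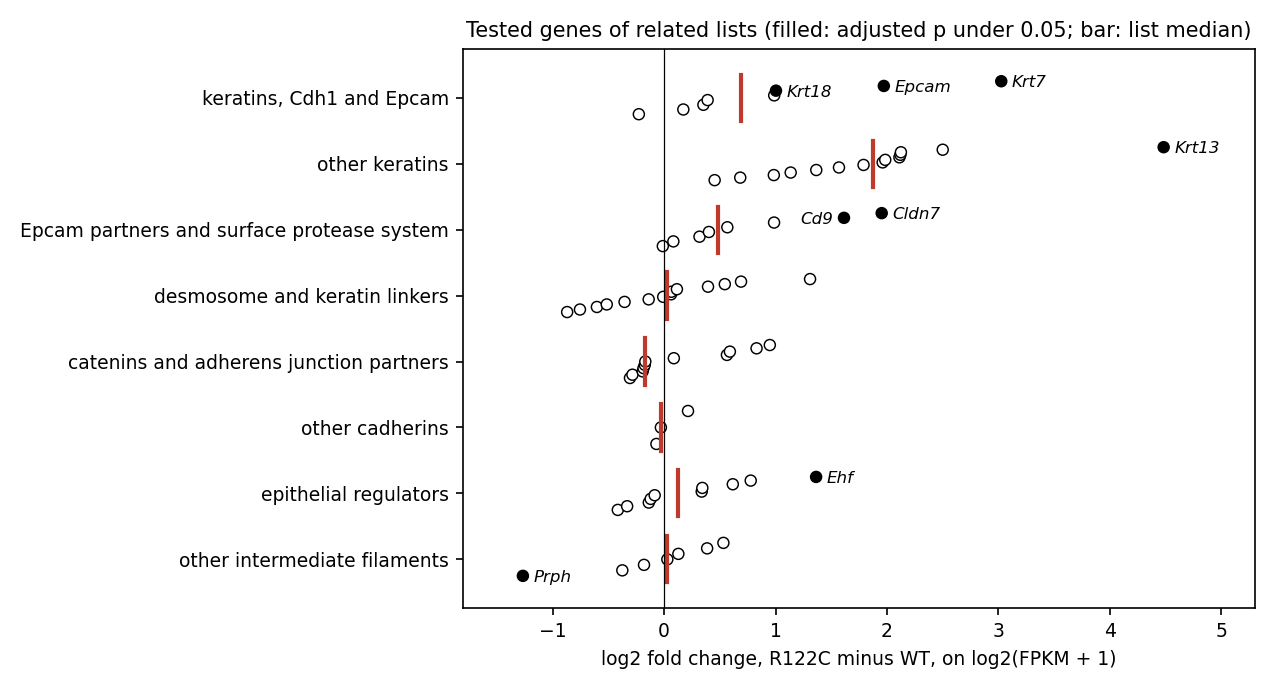
Log2 fold change of R122C minus WT for each tested gene of the related lists, filled where the adjusted p was under 0.05, with a bar at the list median. Calls outside the 8 genes are Krt13, Cldn7, Cd9, Ehf and Prph, and the adherens junction, desmosome and cadherin lists hold no filled point.

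By root mean square difference of centred log2(FPKM + 1) values over the 6 libraries, the 2 tested genes most like each member were found. Ckap4 and Flt3l were nearest to Krt18 (0.031 and 0.083), and Gprc5b and Fmnl2 to Epcam (0.11 and 0.12). Gjb2 and Muc4 were nearest to Krt7 but much less close (0.38 and 0.40), and both were highest in R122C 3. For Krt8 they were Mvp and Fuca1 (0.065 and 0.073), for Krt19 Pim1 and BC021614 (0.094 and 0.13), and for Krt20 Capg and Pdlim1 (0.29 and 0.37). For Krt23 they were Jrk and Rbm12 (0.10 and 0.11), and for Cdh1 Tmcc1 and Ttll10 (0.049 and 0.053).

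Cell type markers moved with the same groups, and their part in the results was not tested. All 6 genes listed for mucous neck cells rose, among them Gkn3, Aqp5, Muc6 and Cftr by log2 fold changes of 5.86, 5.54, 4.35 and 3.63. The summed FPKM of the 6 was 20440 to 29120 in R122C and 3919 to 5653 in WT. In WT, however, Aqp5 was only at 1.16 to 2.90 FPKM and Cftr at 0.03 to 0.06 FPKM. Cftr thus passed the filter only through R122C. Whether the rise comes from neck cells was not tested. Of 9 pit cell genes 2 fell, Muc5ac and Capn8 with log2 fold changes of -2.70 and -1.24, and 7 of the 9 had an unadjusted p under 0.05. Among these 7 was Gcnt1, the only pit gene with a log2 fold change above 0 (0.69). Muc5ac was called under all 18 alternatives and Capn8 under 11, and the number of pit genes called lower ran from 1 to 8. The list's sum was 58040 to 85100 FPKM in R122C and 113800 to 260200 FPKM in WT. Of 6 tested genes of tuft cells, a type known for high Krt18, 5 rose, led by Alox5ap, Rgs13, Trpm5 and Dclk1 at 2.27, 1.79, 1.65 and 1.28 on the log2 scale, and between 1 (filter at 5 FPKM) and 5 were called over the alternatives. Of 8 parietal and 6 chief cell genes tested 0 passed limma, with 3 and 2 at an unadjusted p under 0.05 and Slc26a7 and Chia1 nearest (limma adjusted p = 0.132 and 0.137). Among the 3 parietal genes was Car2, with a log2 fold change above 0 (0.68). The parietal pump gene Atp4a, defining for corpus, was at 326 to 2229 FPKM in R122C and 1962 to 3617 FPKM in WT. In the pancreatic list Sox9 rose and Amy2a5 fell (limma adjusted p = 0.0421 each), in the leukocyte list Cpa3, and among 12 proliferation genes Tyms, rose (0.0322 and 0.0295). Sox9 was called in none of the 6 fits that left out 1 library (limma adjusted p 0.0586 to 0.119), Amy2a5 and Cpa3 in 2 each (0.0151 to 0.112 and 0.0162 to 0.112) and Tyms in 1 (0.044 to 0.142). All 12 proliferation genes had a log2 fold change above 0 and 7 an unadjusted p under 0.05, and over the 18 alternatives between 0 and 12 were called higher, 12 with array weights. The squamous list's only call was Krt13. Limma made 0 calls among 7 enteroendocrine, 8 smooth muscle, 7 fibroblast, 6 endothelial and 2 mesothelial genes tested, of which 2, 0, 0, 0 and 1 had an unadjusted p under 0.05. The smallest adjusted p in each was that of Ghrl (0.0813), Myh11 (0.591), Dcn (0.439), Vwf (0.529) and Nkain4 (0.187).

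Of the whole series, the summed FPKM ran from 581276 to 631156 in R122C and from 685694 to 716992 in WT, and the 10 most abundant genes took 24.5% to 29.1% of it in R122C and 45.3% to 46.2% in WT. Depth, from the step of low values, was about 32500000 fragments in R122C 3 and 31700000 to 43300000 in WT, and was not determined in R122C 1 and R122C 2. R122C 3 correlated least with the others (0.92 and 0.94 across genes within its group). Y-linked transcripts were found in R122C 2 and WT 3.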

How the data were processed

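RNA-seq of corpus tissue from 3 R122C and 3 WT mice was analysed, grouped by title. The submitters' processing notes name STAR, featureCounts and mm10 and give no settings. The authors deposited FPKM values per gene, and the sources used here do not say how these were made from counts. Depth was estimated from the spacing of low FPKM values, accepted where length limits of 1000 and 1500 bases gave estimates within 5%, and no counting interval was derived.

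A filter at a mean of 1 FPKM kept 11422 of 18708 rows. These were compared as log2(FPKM + 1), which shrinks fold changes of low genes, in limma 3.58.1 (R 4.3.3) with a trended prior variance, two-sided, with no covariate, and Benjamini-Hochberg adjustment at 0.05. Members and lists were chosen with earlier results of these data known. Named genes were all members, up to 4 called genes of each list or else the one of smallest p, and the 2 genes nearest in profile to each member; others are marked in the text. Alternatives changed the pseudocount (0.1 or 0.5), the filter (none, or 5 FPKM), the scaling (median-of-ratios, quantile, common total) and the variance model (no trend, robust, array weights), added a replicate block or a covariate for Y-linked transcripts, or left out 1 library; list medians over the same genes without 1 library, and ratios of means without R122C 3, were added after seeing the data. Positions are from GENCODE M21 (GRCm38) and promoters from RefSeq (GRCm38.p6).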

Additional observations from a re-analysis of the deposited data

How the results depend on the processing

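Epcam kept its call under all 18 alternatives, Krt7 under 14 and Krt18 under 8, and all 3 kept their direction under each. Krt8, Krt19, Krt20, Krt23 and Cdh1 were called under none of the 18. The number of members called higher was 1 with no filter and 1 with median-of-ratios scaling, and 1 to 2 without 1 library. The log2 fold change of Krt7 missed the threshold with no filter (3.03) and median-of-ratios scaling (2.91), and that of Krt18 with no filter (1.00), median-of-ratios (0.89), quantile normalization (0.68) and the Y-linked covariate (1.00). Without 1 library Krt7 ran from 2.33 to 3.40 and Krt18 from 0.87 to 1.10. Over the whole table, 392 genes were called higher and 57 lower with the filter at 5 FPKM, 195 lower with median-of-ratios scaling, 248 lower with quantile normalization, 1260 higher with a common total, 3812 higher and 1697 lower with array weights, and 62 lower with the covariate. Without 1 library 246 to 581 were called higher and 14 to 195 lower. The median log2 fold change of all tested genes was 0.10, and 0.29 with a common total, -0.06 with quantile normalization and -0.0028 with median-of-ratios scaling. The replicate numbers were not taken as pairs: deviations from the group means correlated at 0.467, 0.017 and 0.365 between mice of the same number, and R122C 2 correlated best with WT 1 (0.096). A replicate block gave 1119 higher and 259 lower calls, and the same 3 members. Reversed directions were those of Cdh1 (-0.013 quantile, -0.041 array weights), Krt23 (0.0003 common total), BC021614 (-0.088 quantile, -0.21 array weights, and -0.21 to 0.49 without 1 library), Jrk (0.027 common total, 0.021 array weights, -0.25 to 0.045 without 1 library), Rbm12 (0.14 common total, 0.079 array weights, -0.22 to 0.13 without 1 library), Capg (-0.0036 to 0.97 without 1 library), Pim1 (-0.036 array weights, -0.018 to 0.57 without 1 library), Tmcc1 (-0.031) and Ttll10 (-0.12, array weights). Of the medians over the same genes of a list, those near 0 changed sign without 1 library: desmosome and keratin linkers ran from -0.11 to 0.099, other cadherins from -0.20 to 0.32, other intermediate filaments from -0.23 to 0.36, smooth muscle from -0.30 to 0.098 and fibroblast from -0.13 to 0.62. The ratio of means of Krt19 was 0.99 without R122C 3 and 1.33 with it. The cause was not tested. The unknown depth of R122C 1 and R122C 2 limits what can be said of low values.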
